A study of Mus musculus with 4 samples.

Results

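The 6 STAT genes Stat2, Stat3, Stat4, Stat5a, Stat5b and Stat6 carried 48 regions of open chromatin, or peaks, among the 130941 peaks of the mouse genome (build mm10) that were counted in blood stem and progenitor cells. A peak was taken as a STAT peak when the deposited peak table names one of these genes for it. Stat3 had 14 peaks, Stat4 had 13, Stat5b had 11, Stat5a had 5, Stat6 had 3 and Stat2 had 2, and all 48 passed the filter on low counts. The cells were Lin-Sca1+ckit+ bone marrow cells, sorted from Helios null mice (2 libraries) and from Wild Type mice (2 libraries), all 10 weeks old, with a separate mouse for each library. Helios is the transcription factor of the Ikaros family that the gene Ikzf2 encodes. Neither the strain of the mice nor the missing part of Ikzf2 is named in the sources used here. Accessibility was measured with fast-ATAC, in which a transposase cuts open DNA and tags it with sequencing adapters.

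STAT proteins carry signals from cytokine receptors to the nucleus. A bound receptor activates its JAK kinases, these phosphorylate a STAT protein on a tyrosine, and the STAT protein then dimerises and binds DNA. In blood cells STAT5A and STAT5B act downstream of receptors such as those for erythropoietin and interleukin-3, STAT3 downstream of the receptors for interleukin-6 and G-CSF, STAT4 of interleukin-12, STAT6 of interleukin-4 and STAT2 of the type I interferons. STAT2 acts there with IRF9 at interferon-stimulated response elements, while the other STAT proteins bind palindromic TTC and GAA half-sites.

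RefSeq (build GRCm38.p6, the same assembly as mm10) gives 9 promoter windows of 300 bases for the 6 genes, each from 250 bases before to 50 bases after a start, and 8 of the 9 overlap a STAT peak. The windows were searched on both strands for GGGAA, the core motif of the Ikaros family, for TTCNNNGAA, the STAT half-sites with a short spacer, for the same half-sites with a spacer longer by 1 base, and for the interferon-stimulated response element, added after the sequences had been seen. GGGAA was found in 5 of the 9 windows, against 62.7% of all 32851 windows in the same RefSeq table. TTCNNNGAA was found in 0 of 9 (8.3% of all windows), the half-sites with the longer spacer in 1 of 9 (6.95%) and the response element in 2 of 9 (3.44%). The windows below are shown because the promoters of Stat3, Stat5a, Stat6, Stat2 and Stat4 are set against each other in the results, with every motif match in capitals. They are chr11:100939491-100939790 (minus strand) for Stat3, chr11:100859406-100859705 (plus strand) for Stat5a, chr10:127642736-127643035 (plus strand) for Stat6, chr10:128270248-128270547 (plus strand) for Stat2 and chr1:52007990-52008289 (plus strand) for Stat4.
Stat3: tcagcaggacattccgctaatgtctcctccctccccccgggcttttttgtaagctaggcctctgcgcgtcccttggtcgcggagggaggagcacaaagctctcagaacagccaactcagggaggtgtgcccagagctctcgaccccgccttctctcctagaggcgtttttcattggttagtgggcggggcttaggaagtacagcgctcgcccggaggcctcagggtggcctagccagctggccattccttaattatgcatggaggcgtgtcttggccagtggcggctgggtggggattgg
Stat5a: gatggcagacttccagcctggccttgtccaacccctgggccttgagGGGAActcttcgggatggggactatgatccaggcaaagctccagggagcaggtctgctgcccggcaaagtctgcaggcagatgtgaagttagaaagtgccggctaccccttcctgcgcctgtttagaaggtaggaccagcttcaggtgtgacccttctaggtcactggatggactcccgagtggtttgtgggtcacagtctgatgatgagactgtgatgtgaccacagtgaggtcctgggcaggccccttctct
Stat6: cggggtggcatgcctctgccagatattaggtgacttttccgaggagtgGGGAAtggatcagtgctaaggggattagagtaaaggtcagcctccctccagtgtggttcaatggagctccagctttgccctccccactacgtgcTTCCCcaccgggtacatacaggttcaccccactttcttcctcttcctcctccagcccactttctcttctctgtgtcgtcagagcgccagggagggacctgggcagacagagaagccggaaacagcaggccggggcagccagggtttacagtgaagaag
Stat2: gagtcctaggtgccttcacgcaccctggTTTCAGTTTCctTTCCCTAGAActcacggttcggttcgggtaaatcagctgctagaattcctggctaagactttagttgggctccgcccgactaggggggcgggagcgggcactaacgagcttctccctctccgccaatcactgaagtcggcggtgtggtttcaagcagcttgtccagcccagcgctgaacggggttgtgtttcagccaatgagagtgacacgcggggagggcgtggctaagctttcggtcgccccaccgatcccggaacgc
Stat4: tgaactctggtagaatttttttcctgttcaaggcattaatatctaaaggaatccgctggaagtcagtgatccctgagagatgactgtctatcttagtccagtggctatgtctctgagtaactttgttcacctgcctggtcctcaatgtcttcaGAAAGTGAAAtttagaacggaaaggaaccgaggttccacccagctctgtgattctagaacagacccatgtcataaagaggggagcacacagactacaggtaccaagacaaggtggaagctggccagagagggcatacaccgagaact
The Stat3 window held none of the 4 motifs, and the Stat5a window shown held 1 GGGAA. The other Stat5a window (chr11:100860234-100860533), which overlaps the most accessible Stat5a peak, held none of the 4. In the Stat6 window GGGAA occurred on both strands, with its complement TTCCC as the later match. The Stat2 window held the response element, followed by the half-sites with the longer spacer, whose first bases are also a TTCCC. The match in the Stat4 window shown is the response element on the other strand. The upstream Stat4 window (chr1:51986898-51987197), not shown, held 1 GGGAA.

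Stat5a and Stat5b, a pair of neighbouring genes whose proteins are close relatives, share sequence at a start of each. The longest match without gaps between windows of different STAT genes was 65 bases, of which 58 (89.2%) were identical. It lies at chr11:100860418-100860482 (plus strand) in Stat5a, inside the most accessible Stat5a peak, and at chr11:100822563-100822627 (minus strand) in Stat5b, inside its internal promoter peak. Capitals mark the identical bases.
Stat5a: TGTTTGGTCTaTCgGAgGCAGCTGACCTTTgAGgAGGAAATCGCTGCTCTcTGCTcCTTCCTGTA
Stat5b: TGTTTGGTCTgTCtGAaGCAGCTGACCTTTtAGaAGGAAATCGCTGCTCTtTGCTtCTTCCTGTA

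Total counts over all peaks ran from 16033211 to 30290804 per library, with Helios null 1 the deepest and wild type 2 the shallowest. Y-linked peaks held 1166 and 2 counts in Helios null libraries 1 and 2, against 1715 and 5 in wild-type libraries 1 and 2, so library number followed sex in both genotypes, with 1 mouse per sex and genotype. The largest promoter peak of the targeted gene Ikzf2 held 22.2 and 24.04 CPM (counts scaled to library size) in Helios null libraries, against 32.8 and 48.2 CPM in wild type (log2 fold change -0.80, SE 0.22, edgeR adjusted p = 0.189). Of 8 stem and progenitor marker genes, 7 had a promoter peak, with a summed 209 to 213 CPM in Helios null and 207 to 217 CPM in wild type, and the exception was Ly6a, the gene for Sca1. Of other cell types, 0 of 3 B cell genes and 1 of 4 T cell genes had one (T cell sum 1.25 to 1.83 CPM in Helios null and 0.904 to 1.79 CPM in wild type), with Cd3e, Cd3g and Cd8a at 0. Of granulocyte and macrophage genes 2 of 4 had one, with 16.95 to 18.0 CPM in Helios null and 16.98 to 18.2 CPM in wild type, and of erythroid genes 1 of 4, with 10.7 to 12.1 CPM in Helios null and 9.10 to 10.7 CPM in wild type. In a bulk library, a larger share of cells with an open site and a more open site in each cell cannot be told apart.

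Accessibility summed over all peaks of a gene was higher in both Helios null libraries than in both wild-type libraries at Stat3, Stat5b, Stat5a and Stat6, and overlapped between the genotypes at Stat2 and Stat4. Stat3 had 167 and 134.5 CPM in Helios null libraries 1 and 2, against 107.5 and 79.1 CPM in wild-type libraries 1 and 2. Its log2 fold change was 0.69 (SE 0.21, edgeR adjusted p = 0.179). Stat5b held 86.1 and 69.0 CPM in Helios null and 64.8 and 36.5 CPM in wild type, and Stat5a held 70.9 and 57.4 CPM in Helios null and 49.3 and 39.3 CPM in wild type. The log2 fold change was 0.61 (SE 0.27, edgeR adjusted p = 0.206) for Stat5b and 0.53 (SE 0.20, edgeR adjusted p = 0.18) for Stat5a. The plot of summed accessibility by library shows that library 1 was the higher library within each genotype at these 3 genes, and wild type 2 was the lowest library at each.

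At Stat6 the Helios null libraries held 104 and 98.7 CPM and the wild-type libraries 89.1 and 73.2 CPM (log2 fold change 0.32, SE 0.17, edgeR adjusted p = 0.255). Stat2 held 27.4 and 25.1 CPM in Helios null and 26.4 and 28.3 CPM in wild type, with a log2 fold change of -0.06 (SE 0.18, edgeR adjusted p = 0.845). Stat4 held 91.4 and 100.2 CPM in Helios null and 100.7 and 91.6 CPM in wild type, with a log2 fold change of -0.01 (SE 0.16, edgeR adjusted p = 0.985). Groups did not overlap, with Helios null higher, at 34.1% of all 31513 gene sums, which is the background for 4 of 6 STAT genes, and 4 of 6 had a log2 fold change above 0, against 51.0% of all gene sums. No gene sum of the table passed edgeR (0.0%). At an unadjusted edgeR p under 0.05, Stat3 and Stat5a were higher, as were 10.2% of all gene sums, with unadjusted values of 0.0108 for Stat3 and 0.0282 for Stat5a, while 0 STAT genes were lower, against 15.1%. DESeq2 called 1 of the 6 genes, Stat3, as higher (adjusted p = 0.0488), and limma-voom called 0 of the 6. Of the 22348 gene sums with a DESeq2 adjusted p, 1.88% were called as higher and 4.98% as lower.

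**Figure D1:**
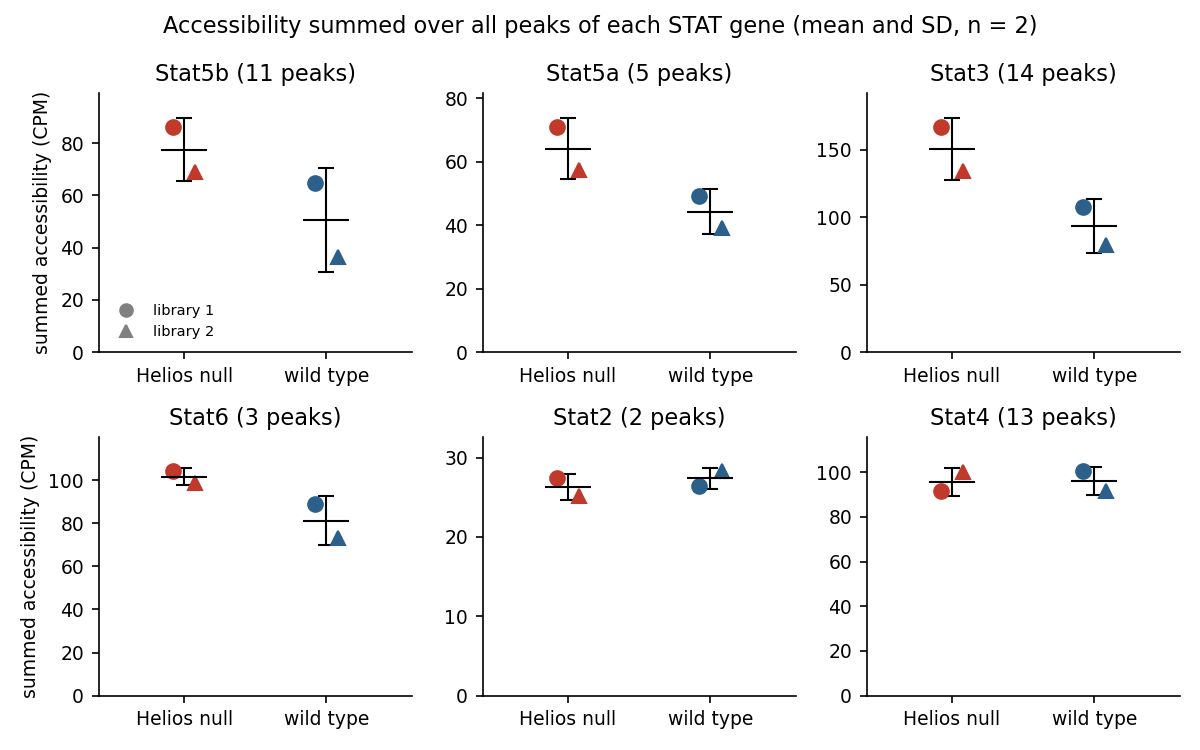
Accessibility summed over all peaks of each STAT gene, in CPM, for each library (circles, library 1; triangles, library 2), with the mean and SD of 2 libraries, Helios null left of wild type. At Stat3 the Helios null libraries sit at 167 and 134.5 CPM and the wild-type libraries at 107.5 and 79.1 CPM, while at Stat2 and Stat4 the genotypes overlap.

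Within each library number, which is also within each sex, the log2 differences of Helios null from wild type were 0.63 and 0.77 for Stat3, 0.52 and 0.55 for Stat5a, 0.41 and 0.91 for Stat5b and 0.23 and 0.43 for Stat6 (numbers 1 and 2). These are single pairs of mice with no test. With library number as a block, edgeR called Stat3 (adjusted p = 4.29e-08), Stat5b (1.07e-06), Stat5a (8.84e-05) and Stat6 (0.0138) as higher, in a fit that called 22.6% of all gene sums as higher and 24.4% as lower. Without wild type 1 the log2 fold change was 0.93 for Stat3, 0.71 for Stat5a and 1.09 for Stat5b. Without wild type 2 it was 0.48 for Stat3, 0.38 for Stat5a and 0.26 for Stat5b. For Stat6 the log2 fold change was 0.47 without wild type 1 and 0.19 without wild type 2.

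Levels were compared between genes per kb of peak. In Helios null the order was Stat6 at 29.7 ± 1.16 CPM per kb, Stat5a at 26.1 ± 3.87, Stat3 at 22.9 ± 3.46, Stat4 at 17.9 ± 1.16, Stat2 at 17.4 ± 1.08 and Stat5b at 12.6 ± 1.96 (SD, n = 2 each). In wild type it was Stat6 at 23.7 ± 3.29 CPM per kb, Stat2 at 18.1 ± 0.903, Stat5a at 18.0 ± 2.88, Stat4 at 17.9 ± 1.20, Stat3 at 14.2 ± 3.05 and Stat5b at 8.2 ± 3.23 (SD, n = 2 each). Stat6 led and Stat5b came last in both genotypes. Set against the sum of their SDs, Stat6 and Stat5a, Stat5a and Stat3, and Stat4 and Stat2 did not differ beyond their spread in the Helios null order. In the wild-type order no neighbours below Stat6 did.

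Single peaks gave the same picture in finer detail, and none of the 48 passed edgeR over all 130754 tested peaks, where 8 peaks (0.00612%) did, 0.000765% of all as higher and 0.00535% as lower. At an unadjusted p under 0.05, 15 STAT peaks had higher and 0 had lower accessibility in Helios null, against 8.29% and 11.5% of all tested peaks. The log2 fold change was above 0 at 38 STAT peaks (50.4% of all tested peaks). At 24 STAT peaks Helios null exceeded wild type without overlap (28.0% of all tested peaks), and at 2 wild type exceeded Helios null (28.3%). All STAT peaks but those of Stat4 have 27 to 72 protein-coding genes within 0.5 Mb. Over all tested peaks with that gene density the 2 shares were 49.9% and 10.2%. Of the 24, the chromosome 11 genes Stat3, Stat5a and Stat5b hold 22, out of their 30 peaks. The median log2 fold change was 0.43 over the 48 peaks, 0.75 over those 30 and -0.0035 over the 18 peaks of Stat2, Stat4 and Stat6, beside 0.01 over all tested peaks. DESeq2 called 1 STAT peak as higher, of 14 to which it gave an adjusted p. Of the 34423 peaks with a DESeq2 adjusted p, 0.901% were called as higher and 1.98% as lower. The authors' deposited table called 1 STAT peak, and limma-voom called 0. The count of STAT peaks past edgeR was 18 without wild type 1, 3 without Helios null 2, 1 without wild type 2 and 0 without Helios null 1, each of them higher. In the same order 8.98%, 0.514%, 0.581% and 0.00459% of all peaks passed as higher. With library number, which follows sex and depth, as a block, 19 STAT peaks passed as higher and 0 as lower, against 10.6% and 12.8% of all tested peaks.

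**Figure D2:**
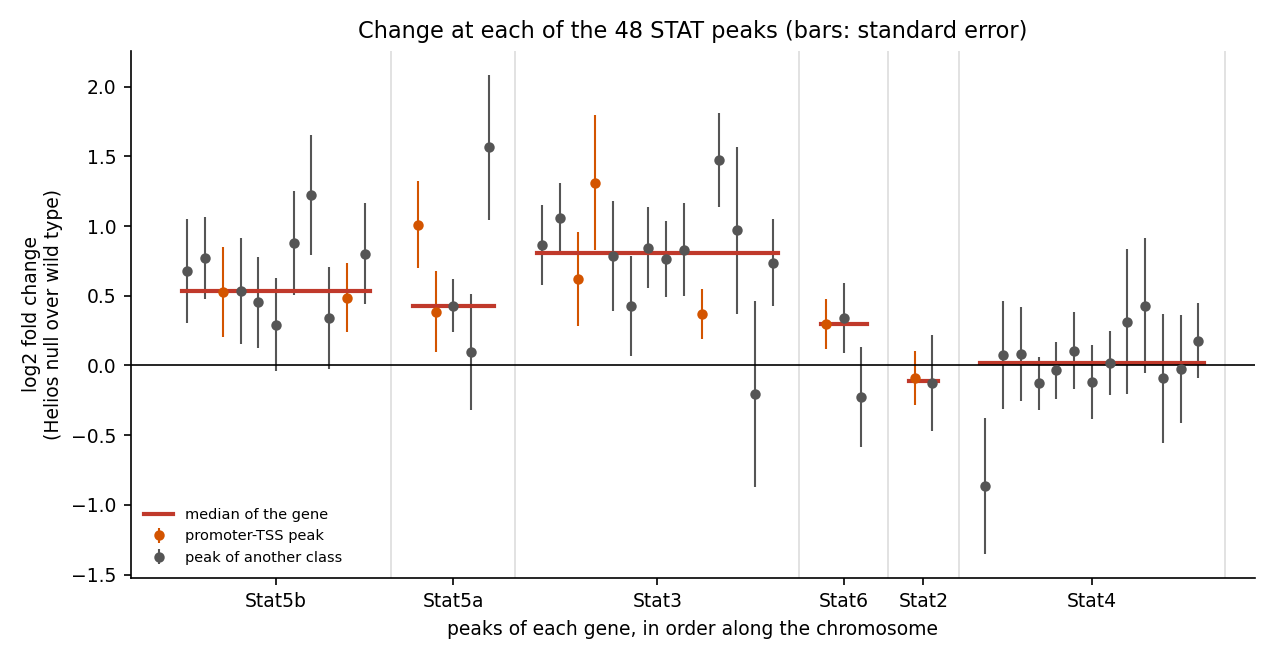
Log2 fold change of Helios null over wild type at each of the 48 STAT peaks, in order along the chromosome within each gene, with its standard error (n = 2 libraries per genotype). Orange points are promoter-TSS peaks and red lines are gene medians, which run from 0.81 at Stat3 to -0.11 at Stat2.

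Stat3, the effector of interleukin-6 and G-CSF signals, had the highest median of the family, a log2 fold change of 0.81. Helios null exceeded wild type without overlap at 11 of its 14 peaks (78.6%). That share was 28.0% over all tested peaks and 49.9% over those with 27 to 72 protein-coding genes within 0.5 Mb. The Stat3 peaks are numbered here from low to high coordinate, which runs against transcription because the gene is on the minus strand (chromosome 11, start 100885098, end 100939540). The main promoter peak, Stat3 peak 10 (start 100939022, end 100940241), held 60.8 and 57.7 CPM in Helios null and 49.3 and 42.2 CPM in wild type. Both Helios null libraries were above both wild-type libraries there, with a log2 fold change of 0.37 (SE 0.18, edgeR adjusted p = 0.274).

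Stat3 peak 2 (start 100891250, end 100892164), in intron 21 of 23, held 24.1 and 15.9 CPM in Helios null and 10.3 and 8.98 CPM in wild type. With a log2 fold change of 1.06 it did not pass edgeR (SE 0.25, adjusted p = 0.189). It is the peak that the authors' deposited table called, with a log2 fold change of 0.88 and an adjusted p of 0.0406. That table called 1.41% of the 54782 peaks for which it gives an adjusted p, 0.455% of them as higher, and it gives one for 23 of the 48 STAT peaks. Within library numbers the log2 difference was 1.23 and 0.82.

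The smallest unadjusted p of the family (0.00107) was at Stat3 peak 11 (start 100946623, end 100947404), an intergenic peak 7.47 kb upstream of the Stat3 start. It held 4.88 and 3.49 CPM in Helios null and 1.63 and 1.36 CPM in wild type (log2 fold change 1.47, SE 0.34, edgeR adjusted p = 0.189). A pair of internal promoter peaks also had non-overlapping groups. Stat3 peak 3 held 6.60 and 7.55 CPM in Helios null against 6.08 and 2.91 CPM in wild type, and the narrow peak 4 held 1.95 and 1.70 CPM against 1.03 and 0.323 CPM in wild type. Their log2 fold changes were 0.62 (SE 0.34) and 1.31 (SE 0.48), and neither passed edgeR (adjusted p = 0.316 and 0.203). Over the 13 peaks other than the main promoter the median was 0.83, and the exception in sign was peak 13, at -0.20 (SE 0.67), which is singled out after its values were seen. It is a weak peak with 26 and 8 counts in Helios null and 33 and 3 counts in wild type.

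Stat5a lies next to Stat3 (start 100859351, end 100885169), and Helios null exceeded wild type without overlap at 4 of its 5 peaks. That share was 28.0% over all tested peaks and 49.9% over those with 27 to 72 protein-coding genes within 0.5 Mb. At the start of the gene, Stat5a peak 1 (start 100859258, end 100859628), whose promoter sequence is given above, held 9.17 and 6.24 CPM in Helios null and 4.52 and 3.04 CPM in wild type. Its log2 fold change was 1.01 (SE 0.31, edgeR adjusted p = 0.189), and the difference within library numbers was 1.01 and 1.02. The adjoining promoter peak 2 held 5.24 and 3.97 CPM in Helios null and 3.69 and 3.36 CPM in wild type (log2 fold change 0.39, SE 0.29, edgeR adjusted p = 0.454). Most of the Stat5a signal was at peak 3 (start 100860101, end 100861280), in intron 2 of 19 of the longer transcript and over the start that shares sequence with Stat5b. It held 50.3 and 44.9 CPM in Helios null and 38.8 and 31.8 CPM in wild type, a log2 fold change of 0.43 (SE 0.19, edgeR adjusted p = 0.246). Stat5a peak 5, in intron 13 of 19, held 2.51 and 0.96 CPM in Helios null and 0.598 and 0.581 CPM in wild type. Its log2 fold change of 1.57 (SE 0.52, edgeR adjusted p = 0.191) came mostly from Helios null 1, with 1.93 within number 1 and 0.65 within number 2.

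Stat5b (start 100780731, end 100850724), which is transcribed away from Stat5a, had a log2 fold change above 0 at all 11 peaks (50.4% of all tested peaks), between 0.29 and 1.22. It had non-overlapping groups, with Helios null higher, at 7 (63.6%), against 49.9% of all tested peaks with 27 to 72 protein-coding genes within 0.5 Mb. Its main promoter, peak 10 (start 100850044, end 100851677), held 24.6 and 20.6 CPM in Helios null and 19.5 and 12.6 CPM in wild type (log2 fold change 0.49, SE 0.24, edgeR adjusted p = 0.285). At the internal promoter, peak 3 (start 100822306, end 100822785), the groups overlapped, with 13.5 and 11.4 CPM in Helios null and 11.5 and 5.49 CPM in wild type. Its log2 fold change was 0.53 (SE 0.32, edgeR adjusted p = 0.361), and it was 1.17 without wild type 1 and 0.11 without wild type 2.

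The peaks with the smallest p at Stat5b both lie in its intron 1 of 18. Peak 8 held 1.42 and 1.88 CPM in Helios null and 0.83 and 0.517 CPM in wild type (log2 fold change 1.22, SE 0.43, edgeR adjusted p = 0.197). Peak 2 held 14.2 and 11.95 CPM in Helios null and 9.70 and 5.42 CPM in wild type (log2 fold change 0.77, SE 0.29, edgeR adjusted p = 0.208). The wild-type libraries differ more from each other at peak 2 than the Helios null libraries do. That holds for the Stat5b sum too, with an SD of 12.1 CPM in Helios null and 20.0 CPM in wild type.

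At each of these 3 genes the most accessible peak had a smaller log2 fold change than the median of the gene's other peaks. The pairs were 0.37 against 0.83 at Stat3, 0.43 against 0.70 at Stat5a and 0.49 against 0.61 at Stat5b. Over all tested peaks with 27 to 72 protein-coding genes within 0.5 Mb, split into 4 classes of equal size by their level, the class with the most counts had a median log2 fold change of 0.26, against 0.33 to 0.37 in the other 3.

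The genes around the Stat5b, Stat5a and Stat3 cluster also had higher values in Helios null, and their difference from the STAT peaks was not tested. Within 250 kb of the cluster 86 peaks are assigned to 27 other genes, and all 86 had a log2 fold change above 0, with a median of 0.65. Helios null exceeded wild type without overlap at 22 of the 30 STAT peaks of the cluster (73.3%) and at 61 of these 86 neighbouring peaks (70.9%). That share was 49.9% over all tested peaks with 27 to 72 protein-coding genes within 0.5 Mb. The vacuolar proton pump gene Atp6v0a1 had a median of 0.82 over 11 peaks and the caveola gene Cavin1 one of 0.71 over 8, both upstream of Stat3, and on the other side Rab5c, a GTPase of early endosomes, had 0.78 over 6 peaks. Their values were known when these 3 genes were picked. In the plot of the chromosome 11 region the STAT peaks lie among those of their neighbours.

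**Figure D3:**
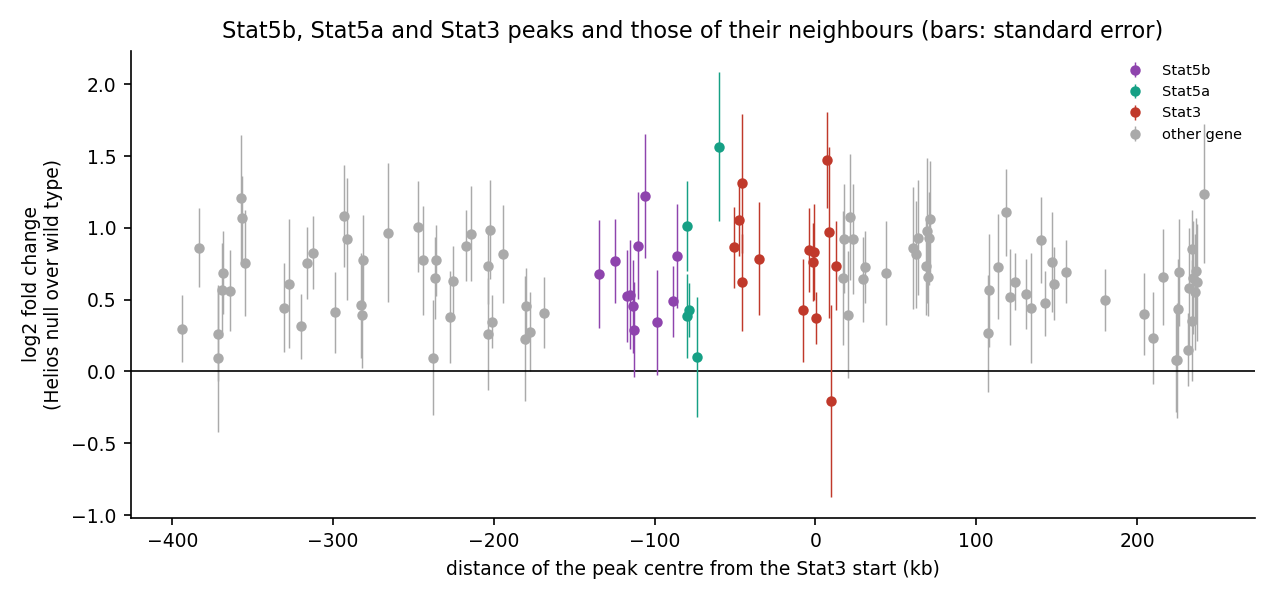
Log2 fold change of Helios null over wild type, with its standard error (n = 2 libraries per genotype), for every tested peak around Stat5b, Stat5a and Stat3, by distance of the peak centre from the Stat3 start in kb. The 86 peaks of other genes (grey, median 0.65) and the 30 STAT peaks (coloured, median 0.75) overlap in height.

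Stat6 and Stat2 lie on chromosome 10. At Stat6, which acts downstream of interleukin-4, the promoter peak 1 (start 127641849, end 127644155) had the most counts of any STAT peak, with 89.9 and 86.2 CPM in Helios null and 78.2 and 65.0 CPM in wild type. The groups did not overlap, and its log2 fold change was 0.30 (SE 0.18, edgeR adjusted p = 0.351). Peak 2 held 10.6 and 9.03 CPM in Helios null and 8.504 and 6.97 CPM in wild type (log2 fold change 0.34, SE 0.25, edgeR adjusted p = 0.446). At the remaining Stat6 peak 3, which the rule for naming peaks does not pick, the groups overlapped (log2 fold change -0.22, SE 0.36, edgeR adjusted p = 0.739). Around Stat6 the median over 67 peaks of 17 other genes was 0.14.

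The Stat2 promoter, peak 1 (start 128270127, end 128271158), which holds the interferon-stimulated response element shown above, had 25.0 and 23.3 CPM in Helios null and 24.7 and 26.9 CPM in wild type. Helios null 1 lay between the wild-type libraries, and the log2 fold change was -0.09 (SE 0.19, edgeR adjusted p = 0.806). Stat2 peak 2, at a transcript end, held 1.88 and 1.66 CPM in Helios null and 1.83 and 2.07 CPM in wild type (log2 fold change -0.13, SE 0.35, edgeR adjusted p = 0.855). Its 75 neighbouring peaks, of 26 genes, had a median of 0.14.

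Stat4, the interleukin-12 effector, lies on chromosome 1 (start 51987148, end 52107189), the chromosome of Ikzf2. No Stat4 peak is classed as a promoter, and no STAT peak overlaps its upstream RefSeq window (chr1:51986898-51987197). The most accessible site, peak 4 (start 52008178, end 52009351), in intron 1 of 23, overlaps the window of the second RefSeq start. It held 32.7 and 38.6 CPM in Helios null and 40.1 and 37.7 CPM in wild type, with a log2 fold change of -0.13 (SE 0.19, edgeR adjusted p = 0.712). The median log2 fold change of the 13 peaks was 0.02, and 7 were above 0 (50.4% of all tested peaks). Helios null lay above wild type without overlap at 0 of them and below at 2. These 2 shares were 28.0% and 28.3% over all tested peaks. They were 13.9% and 41.9% over those with 4 to 5 protein-coding genes within 0.5 Mb.

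The smallest unadjusted p at Stat4 was 0.104, at peak 1 in exon 2 of 25 (start 51996222, end 51996394). It held 0.627 and 0.349 CPM in Helios null and 0.963 and 0.84 CPM in wild type, from 19 and 8 counts in Helios null and 29 and 13 counts in wild type (log2 fold change -0.86, SE 0.49, edgeR adjusted p = 0.329). Peak 10, in intron 3 of 23, held 0.825 and 0.698 CPM in Helios null and 0.465 and 0.71 CPM in wild type (log2 fold change 0.43, SE 0.48, edgeR adjusted p = 0.622). Around Stat4 the median log2 fold change over 40 peaks of 12 other genes was -0.20, and 14 of them (35.0%) lay below wild type without overlap. That share was 28.3% over all tested peaks, and 41.9% over those with 4 to 5 protein-coding genes within 0.5 Mb.

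Local gene density moved with these differences. Over all tested peaks the median log2 fold change was -0.51 where 0 to 3 protein-coding genes lay within 0.5 Mb, and 0.33 where 27 to 72 did. The Stat4 peaks had 5 such genes at the median, and all 13 fall in the class with 4 to 5 genes, where the median of all tested peaks was -0.28. All peaks of the other 5 STAT genes fall in the class with 27 to 72. Stat3 (0.81), Stat5b (0.53) and Stat5a (0.43) lay above the 0.33 of their class, Stat6 (0.30) close to it and Stat2 (-0.11) below it, as the plot of medians against gene density shows. With a trend on gene density removed, the summed log2 fold changes were 0.38 (SE 0.15) for Stat3, 0.32 (SE 0.19) for Stat5b, 0.22 (SE 0.14) for Stat5a, 0.03 (SE 0.14) for Stat6, -0.39 (SE 0.18) for Stat2 and 0.27 (SE 0.17) for Stat4. None of these passed edgeR, with adjusted p-values from 0.199 to 0.911. The direction of the Stat3, Stat5a and Stat5b sums was the same under each scaling tried, whereas with this trend removed the Stat4 sum (-0.01 before), the most accessible Stat4 peak (-0.13) and the Stat6 promoter (0.30) turned their sign, to 0.27, 0.093 and -0.021.

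**Figure D4:**
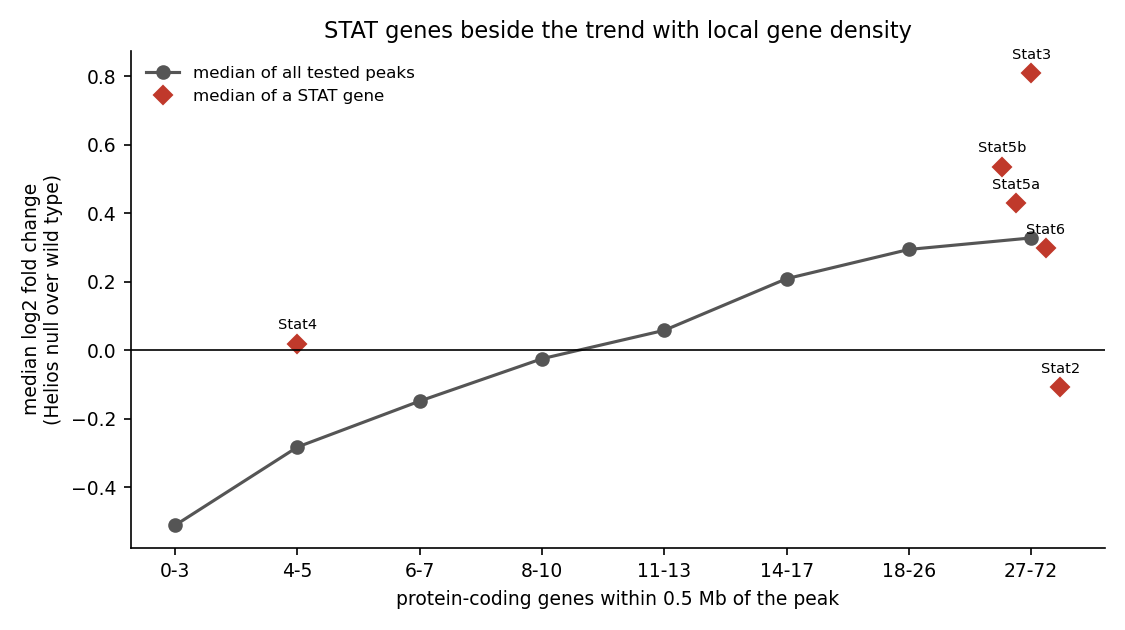
Median log2 fold change of Helios null over wild type (n = 2 libraries per genotype) for all tested peaks in 8 classes of local gene density (grey line) and for each STAT gene (red diamonds, set side by side within a class). Stat3 lies at 0.81 and Stat2 at -0.11 in the class of 27 to 72 genes, whose median is 0.33, and Stat4 at 0.02 in the class of 4 to 5 genes, whose median is -0.28.

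The other genes of the pathway were counted in 5 lists by role, with 491 tested peaks of 71 genes. None of these peaks passed edgeR. At an unadjusted p under 0.05 there were 76 higher and 38 lower peaks (8.29% and 11.5% of all tested peaks), and the median log2 fold change was 0.22. Of the 161 to which DESeq2 gave an adjusted p, it called 3 as higher and 2 as lower (0.901% and 1.98% of all peaks with one), and limma-voom called 0. The authors' deposited table gives an adjusted p for 239 of them and called 2 as higher and 2 as lower (0.455% and 0.958% of all peaks with one).

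Among the kinases, 34 of 41 peaks had a log2 fold change above 0 (50.4% of all tested peaks), with a median of 0.15. Of the 41, Jak1 holds 21 and Jak2 holds 12. Helios null exceeded wild type without overlap at 16 peaks (39.0%), and the reverse held at 4 (9.76%), against 28.0% and 28.3% of all tested peaks. At the peak with the smallest p of each gene, the log2 fold change was 1.08 (SE 0.36) for Jak2 and 0.37 (SE 0.34) for Jak3. It was 0.35 (SE 0.26) for Tyk2 and -0.55 (SE 0.36) for Jak1. On gene sums Jak2 held 100.2 and 92.9 CPM in Helios null and 88.5 and 68.8 CPM in wild type, and Tyk2, the kinase of interferon receptors, 63.5 and 61.8 CPM in Helios null and 57.6 and 49.8 CPM in wild type. The log2 fold changes were 0.29 (SE 0.18) for Jak2, 0.22 (SE 0.17) for Tyk2, 0.16 (SE 0.21) for Jak3 and 0.09 (SE 0.16) for Jak1, and none passed edgeR (adjusted p from 0.309 to 0.705).

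At receptor genes the median was -0.03 over 170 peaks, and by the unadjusted p 14 peaks were higher and 23 lower, close to the 8.29% and 11.5% of all tested peaks. On gene sums 19 of 30 receptor genes had a log2 fold change above 0 (51.0% of all gene sums). Helios null exceeded wild type without overlap at 16 of the 30 (34.1% of all gene sums), and the reverse held at 9 (33.5%). A peak of Il10ra, an interleukin-10 receptor chain, had a log2 fold change of 0.79. An intron peak of the growth hormone receptor gene Ghr held 2.77 and 3.93 CPM in Helios null and 5.75 and 12.3 CPM in wild type (log2 fold change -1.42, SE 0.37, edgeR adjusted p = 0.189). The authors' deposited table called this Ghr peak as lower (adjusted p = 0.042). The prolactin receptor gene Prlr had a peak at -1.36. Ghr had 3 and Prlr 7 protein-coding genes within 0.5 Mb, and Il10ra had 21.

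For inhibitors of the pathway the median over 139 peaks was 0.27, with 26 peaks higher and 10 lower by the unadjusted p (8.29% and 11.5% of all tested peaks). On gene sums 15 of 18 inhibitor genes had a log2 fold change above 0 (51.0% of all gene sums). Helios null exceeded wild type without overlap at 12 (34.1%). The reverse held at 3 (33.5%), Ptpn2 (-0.05), Pias2 (-0.23) and Socs6 (-0.99). Pias4 (0.18, SE 0.19), Socs2 (0.02, SE 0.17) and Socs5 (0.02, SE 0.16) overlapped between the genotypes. Socs3 and Cish were picked after their values were seen. Socs3, the inhibitor induced by STAT3, held a summed 192 and 141 CPM in Helios null and 117 and 64.7 CPM in wild type (log2 fold change 0.87, SE 0.29, edgeR adjusted p = 0.179). Cish, a target and inhibitor of STAT5, held 39.0 and 37.8 CPM in Helios null and 29.6 and 23.9 CPM in wild type (log2 fold change 0.52, SE 0.19, edgeR adjusted p = 0.18). Socs6 lay the other way. Its promoter held 34.7 and 44.0 CPM in Helios null and 64.7 and 101 CPM in wild type (log2 fold change -1.08, SE 0.23, edgeR adjusted p = 0.189), and the authors' deposited table called it as lower (adjusted p = 0.0254). Peaks of Pias1, Ptpn11 and Socs7 had log2 fold changes of 1.56, 1.13 and 1.04.

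Cofactors had a median of -0.07 over 35 peaks, with 2 peaks higher and 5 lower by the unadjusted p (8.29% and 11.5% of all tested peaks). The promoter of Irf9, the partner of STAT2, held 37.6 and 34.5 CPM in Helios null and 29.7 and 25.5 CPM in wild type (log2 fold change 0.38, SE 0.19, edgeR adjusted p = 0.283). The endosomal sorting gene Stam2 had a promoter peak at -0.48. Weak exon peaks of the coactivators Ncoa1 and Crebbp had log2 fold changes of 2.74 and 1.64, with 4.01 and 2.71 within number 1 and 0.21 and 0.08 within number 2.

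Genes that STAT3 or STAT5 are known to induce had a median of 0.50 over 106 peaks, the highest of the 5 lists, and by the unadjusted p 31 peaks were higher and 0 lower (8.29% and 11.5% of all tested peaks). At 74 of these peaks (69.8%) Helios null exceeded wild type without overlap, and at 4 (3.77%) the reverse held (28.0% and 28.3% of all tested peaks). Peaks of the same gene are not independent, and Ccnd1 holds 29 of the 106, Ccnd3 18 and Bcl6 16. On gene sums the median of the 12 genes was 0.38, and 11 were above 0 (51.0% of all gene sums). By the unadjusted edgeR p 4 of the 12 sums were higher and 0 lower (10.2% and 15.1% of all gene sums). An intergenic peak of the cyclin gene Ccnd1 (chromosome 7, start 145025227, end 145026029) held 18.5 and 14.8 CPM in Helios null and 7.44 and 7.68 CPM in wild type (log2 fold change 1.142, SE 0.24, edgeR adjusted p = 0.189). The promoter of Ccnd3 (chromosome 17, start 47595322, end 47596095) held 48.2 and 43.3 CPM in Helios null and 26.3 and 24.1 CPM in wild type (log2 fold change 0.86, SE 0.19, edgeR adjusted p = 0.189). In the authors' deposited table both were called as higher (adjusted p = 0.0229 for Ccnd1 and 0.0372 for Ccnd3). The survival gene Bcl2l1 and the kinase gene Pim1 had peaks at 1.06 and 0.76. The median peak of this list had 13 protein-coding genes within 0.5 Mb, against 10 over all tested peaks.

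**Figure D5:**
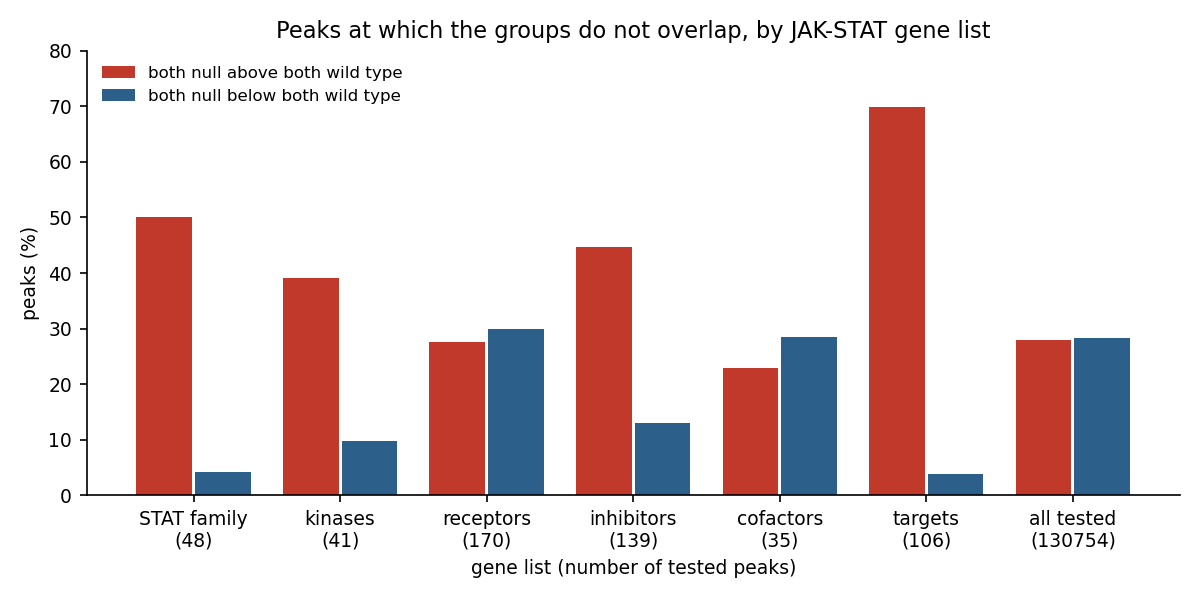
Share of tested peaks at which both Helios null libraries lie above (red) or below (blue) both wild-type libraries, for the STAT genes, the 5 lists of JAK-STAT genes and all tested peaks (n = 2 libraries per genotype). The shares above are 50.0% for the STAT genes, 69.8% for the targets and 28.0% for all tested peaks. For all tested peaks with 27 to 72 protein-coding genes within 0.5 Mb (not drawn) the share above is 49.9%.

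The genes whose sums had the profile most like that of a STAT gene over the 4 libraries were found among 9408 genes with at least 5 peaks, by the Euclidean distance between log2 CPM profiles centred on their means. The closest were Atp6v0d1 to Stat3 (distance 0.005), Mapkapk3 to Stat5a (0.011), Gm13537 to Stat5b (0.012), Creld1 to Stat6 (0.018), Snd1 to Stat2 (0.021) and Csnk1g3 to Stat4 (0.017). Next in distance came 2410003L11Rik for Stat3 (0.015), Prkar1b for Stat5a (0.025), Epop for Stat5b (0.016), C130089K02Rik for Stat6 (0.019), Ublcp1 for Stat2 (0.022) and Rps2-ps5 for Stat4 (0.032). With 4 values per gene many profiles lie close together. Of these genes 2410003L11Rik and Epop are on chromosome 11, as are Stat3 and Stat5b, and the other pairs are on different chromosomes.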

How the data were processed

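Per the labels, chromatin of Lin-Sca1+ckit+ cells was profiled in 4 mice. The build mm10 and the tools HOMER, DESeq, Bowtie2 2.3.4.3 and bcl2fastq 2.17.1.14 are listed, without their roles, per the submitters' processing notes. The sources used here name neither the peak caller nor any pooling. Per the file headers, the deposited library columns hold raw counts for every peak, with no normalization. The authors' deposited baseMean is a signal (mean normalised count), the authors' fold changes (Helios null over wild type) and standard errors are on a log2 scale, and the deposited table also holds each peak's p-value, raw and adjusted.

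Counts were fitted with edgeR 4.0.16 in R 4.3.3 (filterByExpr, TMM, glmQLFit and glmQLFTest, 2-sided, Benjamini-Hochberg adjusted p under 0.05) over 130754 peaks, and again as sums over the peaks of each of 31513 genes. The CPM values are TMM-normalised. Standard errors are the fold change divided by the root of the F statistic. Log2 differences within library numbers used a prior count of 2. The fits were checked on simulated data. Peaks named were the promoter peaks, the most accessible peak and the 2 with the smallest p of each STAT gene, any STAT peak past a test, and in each pathway list the 4 smallest p, 1 per gene. A receptor gene that this rule names is not reported here. Gene sums of Jak1, Jak2, Jak3, Tyk2, Socs3 and Cish were added after their values were seen. The members and lists were chosen with earlier results of these data known. Alternatives were other scalings, offsets, filters, library number as a block, each library left out, DESeq2 1.42.0 and limma-voom (limma 3.58.1). P-values without the block measure the spread between 2 mice per genotype, which differ in sex and depth. With the block they measure the spread left after library number is fitted.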

Additional observations from a re-analysis of the deposited data

Results flagged for a closer look

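At Stat2 and Stat4 the difference of Helios null from wild type had opposite signs in the library pairs, which differ in sex, depth and mouse. The difference between the pairs was not tested, since each holds 1 library per genotype. The summed Stat2 log2 difference was 0.054 within number 1 and -0.17 within number 2, and that of Stat4 was -0.14 and 0.13. By peak, the log2 differences within numbers 1 and 2 were 0.020 and -0.21 at the Stat2 promoter, 0.040 and -0.30 at Stat2 peak 2, -0.30 and 0.034 at Stat4 peak 4, and 0.73 and -0.0225 at Stat4 peak 10.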

How the results depend on the processing

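The count of all peaks past the test was 8, and 4 with limma-voom, 991 with DESeq2 (310 higher), 30595 with library number as a replicate block (13795 higher), and between 39 and 28120 with 1 library left out. That of STAT peaks was 0, and 1 with DESeq2, 19 with the block and between 0 and 18 with 1 library left out. Of other pathway peaks 0 passed, and 5 with DESeq2, 137 with the block and between 0 and 115 with 1 library left out. Of the 6 gene sums 0 passed, and 1 with DESeq2, 4 with the block and between 0 and 3 with 1 library left out. The cause was not tested. Leaving out wild type 1 gave the highest count each time. Calls as higher made up 12.5% of all calls, and 31.3% with DESeq2, 25.0% with limma-voom, 45.1% with the block and 15.4% to 74.4% with 1 library left out. The median over STAT peaks was 0.43, between 0.24 and 0.83 with 1 library left out, 0.28 with gene density offsets and 0.49 for promoter peaks only. With gene density offsets the signs turned at the Stat4 sum (0.27), Stat4 peak 4 (0.093) and Stat6 peak 1 (-0.021). With 1 library left out the Stat4 sum ran from -0.074 to 0.065 (0.057 without Helios null 1) and the Stat2 sum from -0.13 to 0.0034. Under the other scalings and filters run, every STAT result kept its sign and its side of the threshold. The stricter filter left 41 of 48 STAT peaks to test. Where 1 library was left alone in a genotype, its spread was taken from the other genotype. Library numbers are not stated to mark a shared litter or day. Over tested peaks, libraries with the same number deviated together (correlation 0.371 across 2 pairs), and the block is an alternative. Weak peaks limit precision: those with under 1 CPM in wild type had standard errors from 0.39 to 0.67.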
